A study of Mus musculus with 4 samples.

Results

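Lungs carrying an untreated cancer were compared directly with cancer-free lungs given S100A8, using 2 of the 4 groups of a mouse lung study in which 98 genes and 2 housekeeping genes were measured by RT-qPCR. The groups were HBSS + LLC and S100A8 + vehicle, and they were chosen because each carries only 1 of the interventions that the study combined. HBSS + LLC mice received Lewis lung carcinoma (LLC) cells, an established mouse lung cancer line, injected into the lung in Matrigel, and were then given Hanks' Balanced Salt Solution (HBSS) intranasally. S100A8 + vehicle mice received Matrigel without cells and 10 µg of mouse recombinant S100A8, a protein made in *E. coli*, intranasally. All mice were female C57BL/6J aged 6 to 8 weeks, dosed on Days 3, 6 and 9 after the injection, with whole lungs harvested on Day 10. The group HBSS + vehicle, which received Matrigel without cells and HBSS and is called untreated here, is given beside both as the background level. Where 3 Ct values follow each other, they are those of HBSS + vehicle (untreated), S100A8 + vehicle (S100A8) and HBSS + LLC (LLC).

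The groups differ in the cancer and in the S100A8 doses at once, so a difference between them is the distance between the states of these lungs and not the size of either intervention. The deposited values are threshold cycles (Ct), that is, how many rounds of amplification passed before a transcript was detected, averaged over 4 to 5 mice. Each cycle fewer means roughly 2-fold more template. Each group therefore has 1 value per gene, with no spread between mice, and no SD, n, interval or test could be given. In whole-lung RNA, transcripts of the implanted LLC cells and of the host lung cannot be told apart, nor can fewer cells of a type and less RNA per cell.

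S100A8 is a calcium-binding protein of neutrophils and other myeloid cells. Outside the cell it takes part in inflammation, and its thiol group can be oxidized, by which it scavenges oxidants. Growing tumors are known for drawing in myeloid cells that suppress T cells by producing oxidants and nitric oxide and by consuming arginine and tryptophan. The panel covers these functions with cytokines and chemokines, oxidant-forming and oxidant-removing enzymes, hypoxia genes, and genes of matrix, adhesion and growth.

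Differences are given on the log2 scale as HBSS + LLC minus S100A8 + vehicle, after subtracting the mean Ct of the housekeeping assays from each gene's Ct. A positive value means a higher level in HBSS + LLC. The reference decided much of what follows. The first housekeeping assay had Ct values of 14.09 (untreated), 16.17 (S100A8) and 15.35 (LLC). The second was detected at 22.50, 23.30 and 20.56 cycles. Between the compared groups the first assay was thus 0.82 cycles lower in HBSS + LLC and the second 2.74 cycles lower, while the median Ct of the 98 panel genes was 1.465 cycles lower. Using the first assay alone adds 0.96 to every difference between these groups, and using the second alone takes away 0.96. The references thus stand 1.92 apart on the log2 scale, or 3.78-fold. Against HBSS + vehicle, the first assay differed by 1.26 cycles in HBSS + LLC and the second by -1.94, in opposite directions. In S100A8 + vehicle they differed by 2.08 and 0.80 cycles. Differences from HBSS + vehicle are given with the mean of both assays only, and small ones can change sign with the assay. Before any normalization, 92 of the 98 genes had a lower Ct in HBSS + LLC and 6 had a higher one. Ct values above 30, which rest on little template, were found for 23 genes in S100A8 + vehicle and 13 in HBSS + LLC, and 3 genes in S100A8 + vehicle stood at the cut off of 38 cycles.

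With the mean of both housekeeping assays, 23 genes (23.5%) lay above 2-fold in HBSS + LLC and 31 (31.6%) below it, together 55.1% of the panel, and the median of all 98 differences was -0.30. The first assay alone gave 35 higher (35.7%) and 5 lower (5.1%), or 40.8% either way. The second alone gave 11 higher (11.2%) and 59 lower (60.2%), or 71.4% either way. Taking the panel median as reference put 26 genes (26.5%) above and 18 (18.4%) below, 44.9% in all. Of the genes past 2-fold, the higher ones therefore made up 42.6% with the mean of both assays, 87.5% with the first, 15.7% with the second and 59.1% with the panel median. The balance between higher and lower genes thus turned with the reference. A core of 16 genes (16.3%) lay past 2-fold in the same direction with either housekeeping assay alone, 11 of them higher (11.2%) and 5 lower (5.1%) in HBSS + LLC.

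**Figure D1:**
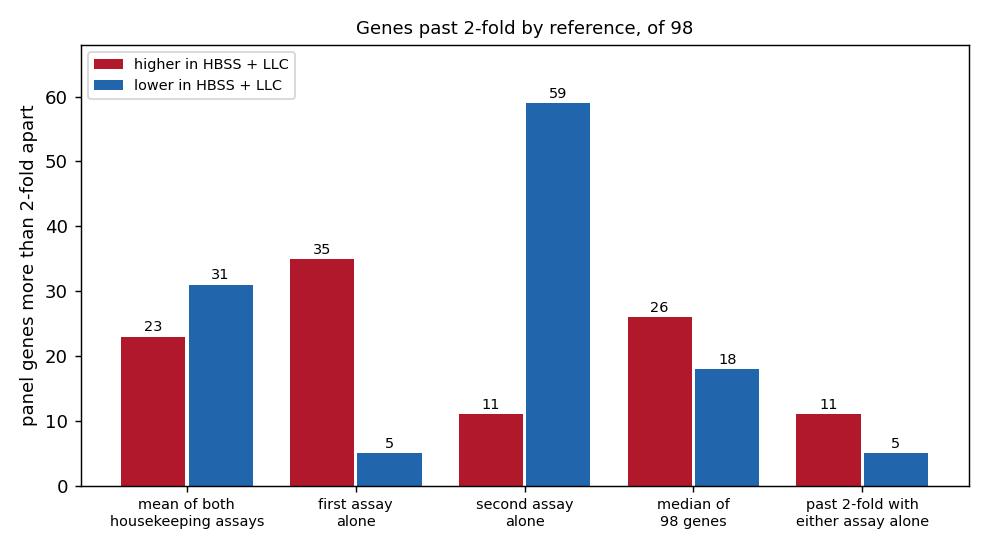
Number of the 98 panel genes more than 2-fold higher (red) or lower (blue) in HBSS + LLC than in S100A8 + vehicle, for each reference. The split turns from 35 higher and 5 lower with the first housekeeping assay to 11 higher and 59 lower with the second, and 11 higher and 5 lower genes passed with each assay alone.

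The 11 higher genes of this core were the antioxidant genes *TXN* and *SOD1*, the cytokines *IL-17β*, *IL-12β*, *IL-4*, *IFN-γ* and *IL-5*, the hypoxia-inducible factor subunits *HIF-1α* and *HIF-1β*, the amino acid transporter *CAT2* and the prostaglandin synthase *PTGS2*. Of these 11, *HIF-1β* turned to -0.19 when Ct values were capped at 35. The 5 lower genes were *IL-13*, *S100A4*, *G-CSF*, *MMP-9* and *GPX1*. These 5 lower genes and *SOCS3* were the 6 genes whose Ct was higher in HBSS + LLC before any normalization. At the other end, *ICAM-1*, *NOX2* and *KRT5* lay within 2-fold whichever of these references was used.

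**Figure D2:**
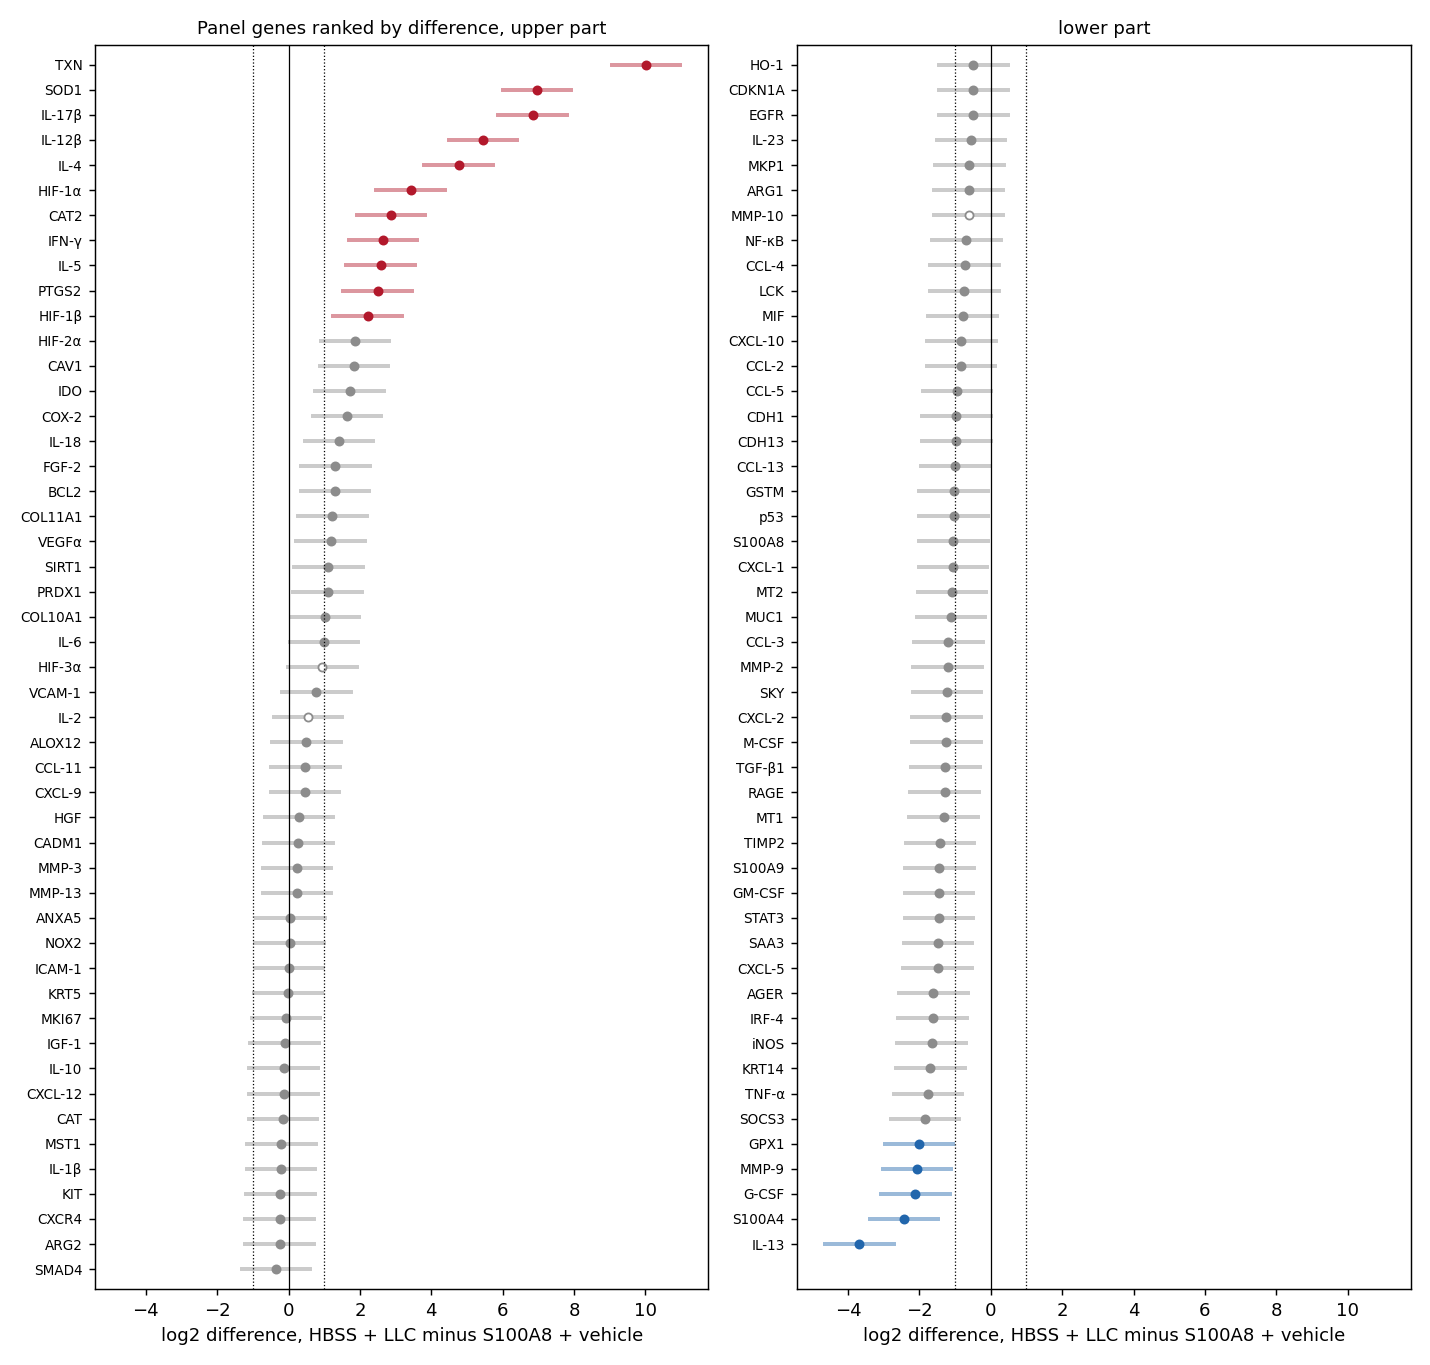
Log2 difference of 97 of the 98 panel genes (points, mean of both housekeeping assays), ranked from *TXN* at 10.02 to *IL-13* at -3.68, with bars spanning the values with the first and the second housekeeping assay alone. Red and blue mark the 11 higher and 5 lower genes past 2-fold (dotted lines) with either assay alone, and open points are lower bounds.

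The antioxidant genes held the 2 largest differences of the panel and went both ways. *TXN*, which encodes the thiol reductase thioredoxin, had Ct values of 37.41 (untreated), 32.72 (S100A8) and 20.92 (LLC). Its level in HBSS + LLC was 1038-fold that in S100A8 + vehicle, a log2 difference of 10.02, with 10.98 and 9.06 under the first and second housekeeping assay. *SOD1*, the cytosolic superoxide dismutase, was at the cut off of 38 cycles in HBSS + vehicle, at 30.55 in S100A8 + vehicle and at 21.81 in HBSS + LLC, a log2 difference of 6.96 or 124-fold. Both had their highest Ct in the untreated lung, at or close to the cut off, and their lowest in the cancer-bearing lung. These are enzymes that nearly every cell uses, yet in S100A8 + vehicle, on which both ratios rest, their Ct also lay above 30. Whether their assays detected the transcript poorly in the untreated or the S100A8-treated group was not tested. *PRDX1*, which encodes a peroxiredoxin that removes hydrogen peroxide and is recycled by thioredoxin, stood closer together in the compared groups. Its Ct values were 30.55 (untreated), 24.95 (S100A8) and 22.07 (LLC), a log2 difference of 1.10 that shrank to 0.14 with the second housekeeping assay.

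The selenium-dependent glutathione peroxidase *GPX1*, which removes peroxides at the expense of glutathione, was placed the other way. Its Ct values were 23.87 (untreated), 26.28 (S100A8) and 26.51 (LLC). The level in HBSS + LLC was 4.03-fold lower than in S100A8 + vehicle, a log2 difference of -2.01 that stayed past 2-fold at -1.05 with the first assay and -2.97 with the second. A ratio of 2 panel genes needs no housekeeping assay. Such pairs, here and for other genes, were chosen after their values had been seen, often from opposite ends of a list, so the size of a ratio follows in part from that choice. The *SOD1* to *GPX1* ratio in HBSS + LLC was 501-fold that in S100A8 + vehicle, and the *PRDX1* to *GPX1* ratio 8.63-fold higher.

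The rest of the antioxidant list lay lower in HBSS + LLC or near equal. The metal-binding metallothioneins *MT1* and *MT2* differed by -1.32 and -1.08, the glutathione transferase *GSTM* by -1.04, heme oxygenase *HO-1* by -0.49 and catalase by -0.15. With the first assay alone *MT1*, *MT2* and *GSTM* were within 2-fold at -0.36, -0.12 and -0.08, and *HO-1* turned to 0.47 and catalase to 0.81. Of the 9 genes of the list, 3 were past 2-fold upward and 4 downward, beside 23.5% and 31.6% of the panel, with a median of -0.49 that became 0.47 with the first assay and -1.45 with the second, beside -0.30 over all 98 genes.

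The promoters of these enzymes are shown because the genes stood so far apart. The 250 bases before each gene's start are from the RefSeq annotation of GRCm38.p6, written 5′ to 3′ on the strand of the gene, and were searched on both strands for the core of the antioxidant response element, TGACNNNGC, or its reverse complement GCNNNGTCA. Capitals mark a match.
Sod1, chr16:90220512-90220761, plus strand: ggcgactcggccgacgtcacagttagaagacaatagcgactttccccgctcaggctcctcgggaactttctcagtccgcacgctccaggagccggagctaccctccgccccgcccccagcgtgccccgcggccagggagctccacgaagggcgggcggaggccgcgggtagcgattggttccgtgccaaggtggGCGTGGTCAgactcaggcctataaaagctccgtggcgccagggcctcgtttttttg
Prdx1, chr4:116685349-116685598, plus strand: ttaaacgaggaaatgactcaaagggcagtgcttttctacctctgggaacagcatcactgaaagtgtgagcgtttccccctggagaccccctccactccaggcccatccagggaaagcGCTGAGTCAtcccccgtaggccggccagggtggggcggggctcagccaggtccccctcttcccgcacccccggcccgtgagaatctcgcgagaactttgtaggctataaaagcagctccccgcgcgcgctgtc
Txn1, chr4:57956412-57956661, minus strand: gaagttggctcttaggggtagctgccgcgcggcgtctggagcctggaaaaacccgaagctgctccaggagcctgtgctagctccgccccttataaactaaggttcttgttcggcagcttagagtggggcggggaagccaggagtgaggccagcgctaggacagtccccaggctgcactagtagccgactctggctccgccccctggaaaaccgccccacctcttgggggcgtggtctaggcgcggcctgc
Gpx1, chr9:108338830-108339079, plus strand: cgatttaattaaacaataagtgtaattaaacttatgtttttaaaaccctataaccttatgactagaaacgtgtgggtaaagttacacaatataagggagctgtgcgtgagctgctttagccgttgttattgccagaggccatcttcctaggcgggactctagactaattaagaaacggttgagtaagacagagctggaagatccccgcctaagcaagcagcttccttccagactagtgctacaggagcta

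A match was found once in the *Sod1* and once in the *Prdx1* window, both on the opposite strand, and these letters were not in the *Txn1* and *Gpx1* windows. Of all 32851 promoter windows of this length, 10.2% held the motif. A match is a description of the letters, and the binding of a factor was not measured.

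Among the type 2 cytokines, which T helper 2 cells and innate lymphoid cells make, *IL-4* and *IL-13* stood on opposite sides. *IL-4*, which drives T helper 2 differentiation, was at the cut off of 38 cycles in HBSS + vehicle, at 37.24 in S100A8 + vehicle and at 30.69 in HBSS + LLC. This is a log2 difference of 4.77, or 27.3-fold, between the compared groups, which dropped to 2.53 when Ct values were capped at 35. *IL-13*, which acts on airway epithelium and mucus, was detected at 27.09, 30.73 and 32.63 cycles in those lungs, a log2 difference of -3.68 or 12.8-fold lower in HBSS + LLC. This was the lowest difference of the 98. *IL-5*, the growth factor of eosinophils, had Ct values of 25.96, 29.41 and 25.05, which made it 5.98-fold higher in HBSS + LLC than in S100A8 + vehicle. For *IL-5* the untreated and cancer-bearing lungs lay within 1 cycle of each other and the S100A8-treated lung stood apart, whereas *IL-13* was highest in the untreated lung and lowest in the cancer-bearing lung.

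Free of any housekeeping assay, the *IL-4* to *IL-13* ratio in HBSS + LLC was 350-fold that in S100A8 + vehicle, and the *IL-5* to *IL-13* ratio 76.6-fold higher. The first of these ratios rests on an *IL-4* Ct of 37.24 in S100A8 + vehicle, close to the cut off, and is smaller with Ct values capped at 35. These genes lie in the same cluster on chromosome 11, with no protein-coding gene between *Il4* and *Il13* and 1, *Rad50*, between *Il13* and *Il5*. Of the 3 genes, 2 were past 2-fold upward and 1 downward, beside 23.5% and 31.6% of the panel. The promoters of the neighbours *Il4* and *Il13* are set side by side because their transcripts differed in direction, again as 250 bases before the start in GRCm38.p6 from RefSeq, on the gene's strand. Capitals mark GGAAA, the core bound by NFAT factors of activated T cells, or its reverse complement TTTCC.
Il4, chr11:53618666-53618915, minus strand: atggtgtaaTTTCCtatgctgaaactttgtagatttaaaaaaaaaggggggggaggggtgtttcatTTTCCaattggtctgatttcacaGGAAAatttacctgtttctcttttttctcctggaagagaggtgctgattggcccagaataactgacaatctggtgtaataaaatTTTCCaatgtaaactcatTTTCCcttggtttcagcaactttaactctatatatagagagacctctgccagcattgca
Il13, chr11:53634703-53634952, minus strand: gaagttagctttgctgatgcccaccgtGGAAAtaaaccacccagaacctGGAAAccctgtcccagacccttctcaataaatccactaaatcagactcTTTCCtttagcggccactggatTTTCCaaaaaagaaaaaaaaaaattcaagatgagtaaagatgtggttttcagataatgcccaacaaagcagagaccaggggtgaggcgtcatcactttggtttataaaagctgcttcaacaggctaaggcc

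The *Il4* window held 5 matches and the *Il13* window 4. The motif was present in 55.6% of all promoter windows, so its letters do not set these windows apart.

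Type 1 and T cell cytokines were mostly higher in HBSS + LLC. *IL-12β*, the shared subunit of IL-12 and IL-23, had Ct values of 26.04 (untreated), 30.07 (S100A8) and 22.84 (LLC). The compared groups stood on opposite sides of the untreated lung and were 43.7-fold apart, a log2 difference of 5.45. *IFN-γ*, which activates macrophages and antigen presentation, had Ct values of 31.24, 30.34 and 25.91, a difference of 2.65 or 6.28-fold. *IL-18*, which helps induce IFN-γ, had Ct values of 33.56, 31.39 and 28.20 and differed by 1.41, within 2-fold at 0.45 when the second housekeeping assay was used. The assay named *IL-23* differed by -0.55, which turned to 0.41 with the first housekeeping assay, and the ratio of *IL-12β* to it was 64.0-fold higher there. *IL-2*, the T cell growth factor, was at the cut off in S100A8 + vehicle and at 35.68 in HBSS + LLC, so its difference of 0.54 is a lower bound. Of the 5 genes, 3 were past 2-fold upward and none downward, beside 23.5% and 31.6% of the panel. The second assay alone left 2 upward and put 1 downward, beside 11.2% and 60.2% of the panel. The median was 1.41, 2.37 with the first assay and 0.45 with the second.

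Innate cytokines were spread widely. *IL-17β*, a member of the IL-17 family, had Ct values of 30.38 (untreated), 35.78 (S100A8) and 27.16 (LLC), a log2 difference of 6.84 or 115-fold, which was 6.06 or 66.7-fold with Ct values capped at 35. As with *IL-12β*, the untreated lung lay between the compared groups. *TNF-α* had Ct values of 23.46, 24.60 and 24.58 and was 3.39-fold lower in HBSS + LLC, a difference of -1.76 that was -0.80 with the first assay. *IL-6* differed by 0.99 and *IL-1β* by -0.21, both within 2-fold. The *IFN-γ* to *TNF-α* ratio in HBSS + LLC was 21.3-fold that in S100A8 + vehicle.

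The immunosuppressive cytokine *IL-10* had nearly the same level in both groups with the mean of both assays, although each was far from the untreated lung. Its Ct values were 36.68 (untreated), 30.89 (S100A8) and 29.25 (LLC), a difference of -0.14 between the latter, with 0.82 and -1.10 under the first and second housekeeping assay. Against HBSS + vehicle, which both comparisons share, the log2 difference was 7.23 in S100A8 + vehicle and 7.09 in HBSS + LLC. *TGF-β1*, a regulator of immune tolerance and fibrosis, differed by -1.27, or 2.41-fold lower in HBSS + LLC, and by -0.31 with the first assay alone.

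**Figure D3:**
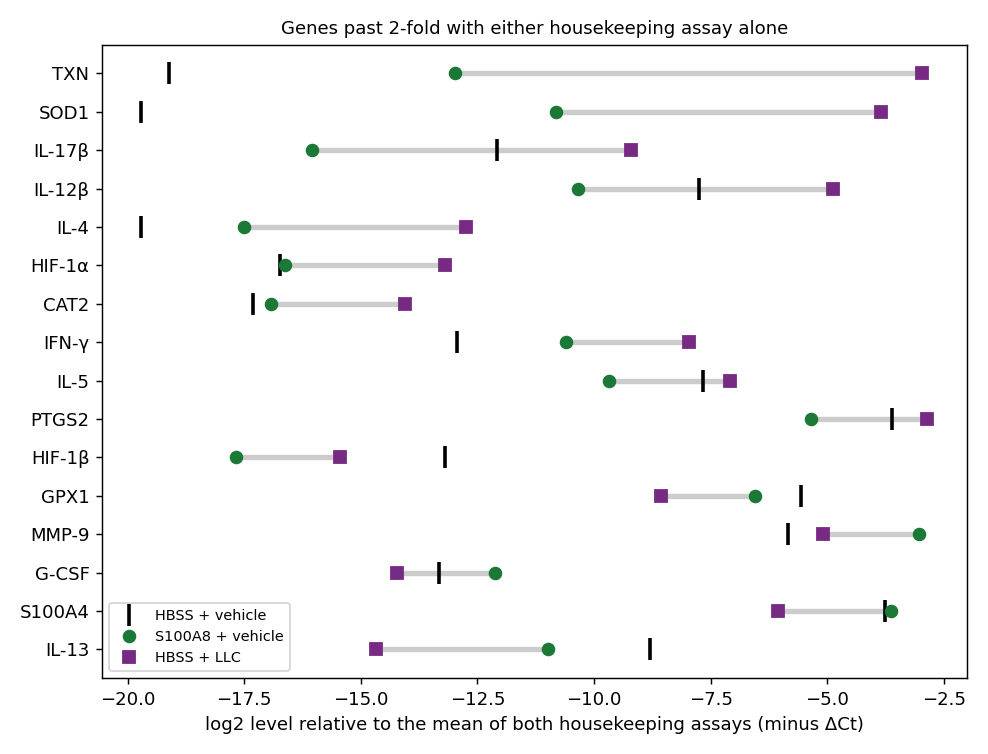
Log2 level relative to the mean of both housekeeping assays (minus ΔCt, where ΔCt is Ct minus that mean) of the 16 genes past 2-fold with either assay alone, in HBSS + vehicle (black ticks), S100A8 + vehicle (green circles) and HBSS + LLC (purple squares), 1 averaged value each. For *IL-17β* and *IL-12β* the untreated lung lies between the compared groups, for *TXN* and *SOD1* it lies below both, and the *SOD1* and *IL-4* ticks are at the cut off of 38 cycles.

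Chemokines, which recruit leukocytes, were close together in these lungs. None of the 12 was more than 2-fold higher in HBSS + LLC, beside 23.5% of the panel. More than 2-fold lower were 4, a share near the 31.6% of the panel. Differences ran from -1.49 for *CXCL-5* to 0.47 for *CCL-11*. The 4 were *CXCL-5*, *CXCL-2* at -1.24, *CCL-3* at -1.19 and *CXCL-1* at -1.06. With the first housekeeping assay alone these 4 lay between -0.53 and -0.10. Close to them but within 2-fold were *CCL-13* at -0.99, *CCL-5* at -0.94, *CCL-2* at -0.83, *CXCL-10* at -0.82 and *CCL-4* at -0.73. The eosinophil chemokine *CCL-11* at 0.47 and the IFN-γ-induced *CXCL-9* at 0.46 were the only chemokines above 0 with the mean of both assays. The first assay alone put 2 chemokines above 2-fold and none below, beside 35.7% and 5.1% of the panel. The second put none above and 10 below, beside 11.2% and 60.2%. The median of the list, -0.885, turned to 0.075 with the first assay. *CXCL-12*, which retains leukocytes in tissue, differed by -0.14 and its receptor *CXCR4* by -0.25, and the macrophage cytokine *MIF* by -0.79.

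All 3 colony-stimulating factors, which expand and mobilize myeloid cells, were more than 2-fold lower in HBSS + LLC, beside 31.6% of the panel. With the first assay alone 1 of them was, beside 5.1% of the panel. *G-CSF*, the granulocyte factor, had Ct values of 31.61 (untreated), 31.86 (S100A8) and 32.19 (LLC). Its difference was -2.11, or 4.32-fold, and was -1.15 with the first assay, although its Ct was above 30 in each of these groups. *GM-CSF* differed by -1.45 and *M-CSF* by -1.24, which became -0.49 and -0.28 with the first assay. The list's median was -1.45, with -0.49 under the first assay and -2.41 under the second.

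S100 proteins and their receptor were lower in the cancer-bearing lung with the mean of both housekeeping assays. *S100A4*, linked to cell motility and metastasis, had Ct values of 22.06 (untreated), 23.37 (S100A8) and 24.02 (LLC), and was 5.39-fold lower in HBSS + LLC at a difference of -2.43. *S100A8* itself had Ct values of 19.94, 20.18 and 19.45, a difference of -1.05, and its partner *S100A9* Ct values of 19.15, 19.53 and 19.19, a difference of -1.44. The assay measures the transcript and not the protein that was given. Against HBSS + vehicle *S100A8* differed by 1.20 in S100A8 + vehicle and by 0.15 in HBSS + LLC, with the mean of both housekeeping assays. The sign of the latter value depends on which assay is used. *SAA3*, an acute-phase protein, differed by -1.48. The list holds 6 assays for 5 genes, since the receptor was measured under both of its names. All 6 assays were more than 2-fold lower with the mean of both housekeeping assays, beside 31.6% of the panel, at a median of -1.46. With the first assay the median was -0.50 and *S100A4* alone passed 2-fold, beside 5.1% of the panel.

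*RAGE* and *AGER* are names of the same gene, a receptor for S100 proteins that is abundant in alveolar type 1 cells, and the panel holds an assay for each. *RAGE* had Ct values of 16.86 (untreated), 17.40 (S100A8) and 16.91 (LLC), and *AGER* had 16.06, 16.63 and 16.46. Their differences of -1.29 and -1.61 lay 0.32 apart, or 1.25-fold. *COX-2* and *PTGS2* likewise name 1 gene, which makes the inducible enzyme of prostaglandin synthesis. *COX-2* had Ct values of 28.51, 30.23 and 26.81, and *PTGS2* had 21.90, 25.09 and 20.81. Their differences of 1.64 and 2.50 had the same sign and lay 0.86 apart, or 1.82-fold. The levels stood much further apart, with *COX-2* at 6.61, 5.14 and 6 cycles above *PTGS2* in these groups. Where these assays sit in the transcripts is not given in the sources used here. These are the only repeat measurements among the panel names paired with a symbol, each assay counts among the 98, and they show how far assays of 1 gene stood apart within the same averaged samples.

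The eicosanoid list holds 3 assays for 2 genes. The prostaglandin synthase above was more than 2-fold higher in both of its assays, beside 23.5% of the panel. With the second housekeeping assay *COX-2* was at 0.68 and *PTGS2* at 1.54, where 11.2% of the panel was more than 2-fold higher. The other gene, *ALOX12*, a 12-lipoxygenase, differed by 0.50, within 2-fold, and turned to -0.46 with the second housekeeping assay.

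Enzymes and transporters of arginine and tryptophan, through which myeloid cells deprive T cells, split. *CAT2*, the cationic amino acid transporter that brings arginine into the cell, had Ct values of 35.61 (untreated), 36.65 (S100A8) and 32.00 (LLC). Its level in HBSS + LLC was 7.31-fold that in S100A8 + vehicle, a difference of 2.87 that dropped to 1.22 with Ct values capped at 35. *IDO*, which degrades tryptophan, had Ct values of 28.83, 29.47 and 25.98 and differed by 1.71, or 3.27-fold, and by 0.75 with the second housekeeping assay. *iNOS*, which makes nitric oxide from arginine, went the other way with Ct values of 26.41, 27.27 and 27.15 and a difference of -1.66, or 3.16-fold lower, and -0.70 with the first assay. The *CAT2* to *iNOS* ratio was accordingly 23.1-fold higher in HBSS + LLC, and the *IDO* to *iNOS* ratio 10.3-fold higher. The *CAT2* ratio rests on a Ct of 36.65 in S100A8 + vehicle and is smaller with the cap. *ARG1*, the arginase of alternatively activated macrophages, had Ct values of 31.03, 26.87 and 25.71. It differed by -0.62 between the compared groups, or 0.34 and -1.58 with the first and second assay, while against HBSS + vehicle it differed by 5.60 in S100A8 + vehicle and 4.98 in HBSS + LLC. *ARG2*, the mitochondrial arginase, differed by -0.25 and *NOX2*, the superoxide-forming oxidase of phagocytes, by 0.03.

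Hypoxia-inducible factors and the angiogenic factor *VEGFα* were mostly higher in HBSS + LLC. *HIF-1α*, the oxygen-regulated subunit, had Ct values of 35.03 (untreated), 36.35 (S100A8) and 31.15 (LLC), a difference of 3.42 or 10.7-fold, which was 2.07 with Ct values capped at 35. *HIF-1β*, its constitutive partner, had Ct values of 31.48, 37.41 and 33.41, a difference of 2.22 that turned to -0.19 with the cap, so its direction rests on a Ct close to the cut off. *HIF-2α* had Ct values of 28.64, 34.23 and 30.59 and a difference of 1.86, or 0.90 with the second housekeeping assay. For both *HIF-1β* and *HIF-2α* the untreated lung had the lowest Ct, with the cancer-bearing lung between it and the S100A8-treated lung. *HIF-3α* was at the cut off in S100A8 + vehicle and its difference of 0.95 is a lower bound. *VEGFα* had Ct values of 19.99, 20.29 and 17.33 and differed by 1.18, or 2.27-fold, which dropped to 0.22 with the second housekeeping assay. Of these 5 genes 4 were past 2-fold upward, beside 23.5% of the panel, and none downward. The second assay alone left 2 of the 5 upward, beside 11.2% of the panel. Capping Ct at 35 gave 3 upward and 1 downward, beside 21 and 34 of the 98 genes. The 1 downward was *HIF-3α*, which was above the cap in both groups. The median was 1.86, 2.82 with the first assay and 0.90 with the second.

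**Figure D4:**
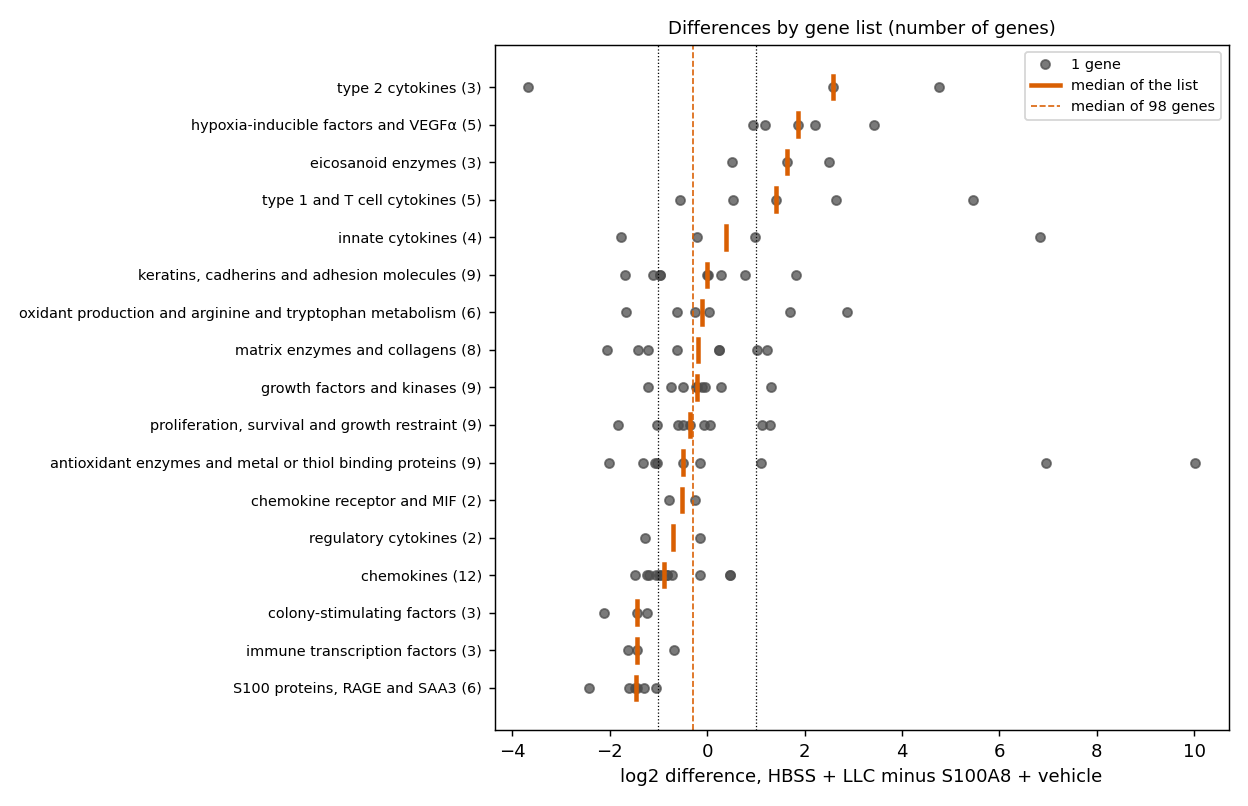
Log2 differences of the 98 genes (points) by gene list, with each list's median (orange bars), the median of all 98 genes at -0.30 (dashed line) and 2-fold (dotted lines), relative to the mean of both housekeeping assays. The hypoxia list has 4 of 5 genes above 2-fold, beside 23.5% of the panel. The S100 list (6 assays of 5 genes) and the colony-stimulating factors lie wholly more than 2-fold below, beside 31.6%.

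Matrix enzymes and collagens differed gene by gene. *MMP-9*, the gelatinase of neutrophils and macrophages, had Ct values of 24.14 (untreated), 22.76 (S100A8) and 23.04 (LLC). It was 4.17-fold lower in HBSS + LLC at a difference of -2.06, with -1.10 and -3.02 under the first and second housekeeping assay, and its lowest Ct of the groups given here was in the S100A8-treated lung. The metalloproteinase inhibitor *TIMP2* differed by -1.42 and the gelatinase *MMP-2* by -1.21, both within 2-fold with the first assay. The collagenase *MMP-13* and the stromelysin *MMP-3* each differed by 0.24, which left the *MMP-13* to *MMP-9* ratio 4.92-fold higher in HBSS + LLC. *COL10A1* differed by 1.02, and *COL11A1*, at a Ct of 36.37 in S100A8 + vehicle, by 1.23, which turned to -0.14 when Ct values were capped at 35. With the second housekeeping assay these were within 2-fold at 0.06 and 0.27. Of the 8 genes of the list 2 were past 2-fold upward and 3 downward, beside 23.5% and 31.6% of the panel. The first assay gave 4 and 1, beside 35.7% and 5.1% of the panel, and the second none and 4, beside 11.2% and 60.2%. *MMP-10* was at the cut off in S100A8 + vehicle, so its difference of -0.62 is a lower bound and leaves the direction unknown.

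Among adhesion and epithelial genes, *ICAM-1* stood at nearly equal levels in the compared groups with the mean of both assays, and far from the untreated lung. This endothelial and epithelial ligand of leukocyte integrins had Ct values of 32.47 (untreated), 21.03 (S100A8) and 19.23 (LLC). The compared groups differed by 0.02, with 0.98 and -0.94 under the first and second housekeeping assay. Against HBSS + vehicle the log2 difference was 12.88 in S100A8 + vehicle and 12.90 in HBSS + LLC. Both of these rest on the same untreated Ct of 32.47, and whether the assay detected the transcript poorly there was not tested. *KRT5*, a basal cell keratin, was likewise near equal in the compared groups but lower there than in the untreated lung. Its Ct values were 25.92, 30.46 and 28.69 and its difference -0.01, with 0.95 and -0.97 under the first and second assay. The epithelial cadherin *CDH1* had Ct values of 22.38, 18.79 and 17.97 and differed by -0.96. *KRT14* differed by -1.69 and the mucin *MUC1* by -1.11, and with the first assay these became -0.73 and -0.15.

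*CAV1*, which encodes the caveolar coat protein of endothelium and alveolar type 1 cells, had Ct values of 16.76 (untreated), 18.56 (S100A8) and 14.95 (LLC), a difference of 1.83 or 3.56-fold that was within 2-fold at 0.87 with the second housekeeping assay. *RAGE* and *AGER*, the assays of the other alveolar type 1 marker, were lower, and the *CAV1* to *AGER* ratio was 10.9-fold higher in HBSS + LLC. *VCAM-1*, an adhesion molecule of activated endothelium, differed by 0.78, *CADM1* by 0.28 and *CDH13* by -0.96. Of the 9 genes of the list 1 was past 2-fold upward and 2 downward, fewer than the 23.5% and 31.6% of the panel, with a median of -0.01 that was 0.95 with the first assay and -0.97 with the second.

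Growth factors and kinases were mostly within 2-fold with the mean of both assays, and so was the marker of dividing cells. *MKI67* had Ct values of 23.32 (untreated), 25.15 (S100A8) and 23.44 (LLC), and differed by -0.07, with 0.89 and -1.03 under the first and second housekeeping assay. *FGF-2*, a fibroblast and endothelial growth factor, differed by 1.31, *HGF* by 0.29, *IGF-1* by -0.11, and the receptors *EGFR* by -0.49, *KIT* by -0.23 and *SKY* by -1.22. The T cell kinase *LCK* differed by -0.74 and *MST1* by -0.20. Of these 9 genes, 1 was past 2-fold upward and 1 downward, beside the 23.5% and 31.6% of the whole panel. The first assay alone gave 2 upward and none downward, with *SKY* at -0.26, beside 35.7% and 5.1% of the panel. The second gave none upward and 6 downward, beside 11.2% and 60.2%.

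Of the 9 genes of proliferation, survival and growth restraint, *MKI67* among them, 2 were past 2-fold upward and 2 downward, near or below the 23.5% and 31.6% of the panel. The first assay alone gave 3 upward and none downward, beside 35.7% and 5.1% of the panel. The second gave none upward and 6 downward, beside 11.2% and 60.2%. *BCL2*, which blocks apoptosis, differed by 1.30 and the deacetylase *SIRT1* by 1.12, both within 2-fold with the second housekeeping assay at 0.34 and 0.16. *SOCS3*, the feedback inhibitor of cytokine signaling through STAT3, had Ct values of 21.22 (untreated), 21.45 (S100A8) and 21.51 (LLC), a difference of -1.84 or 3.58-fold lower. *p53* differed by -1.04, or -0.08 with the first assay, the phosphatase *MKP1* by -0.60, *CDKN1A* by -0.49, *SMAD4* by -0.35 and *ANXA5* by 0.05. *SOCS3* was the next after the 5 lower genes of the core, at -0.88 with the first assay.

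Of the 3 immune transcription factors, 2 were more than 2-fold lower in HBSS + LLC with the mean of both assays and none with the first assay alone, beside 31.6% and 5.1% of the panel. *IRF-4*, needed by lymphocytes and alternatively activated macrophages, had Ct values of 22.06 (untreated), 23.44 (S100A8) and 23.29 (LLC) and differed by -1.63. *STAT3* differed by -1.45 and *NF-κB* by -0.68. With the first assay these became -0.67, -0.49 and 0.28, so *NF-κB* changed sign with the reference. The median of the list was -1.45, with -0.49 and -2.41 under the first and second assay.

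**Figure D5:**
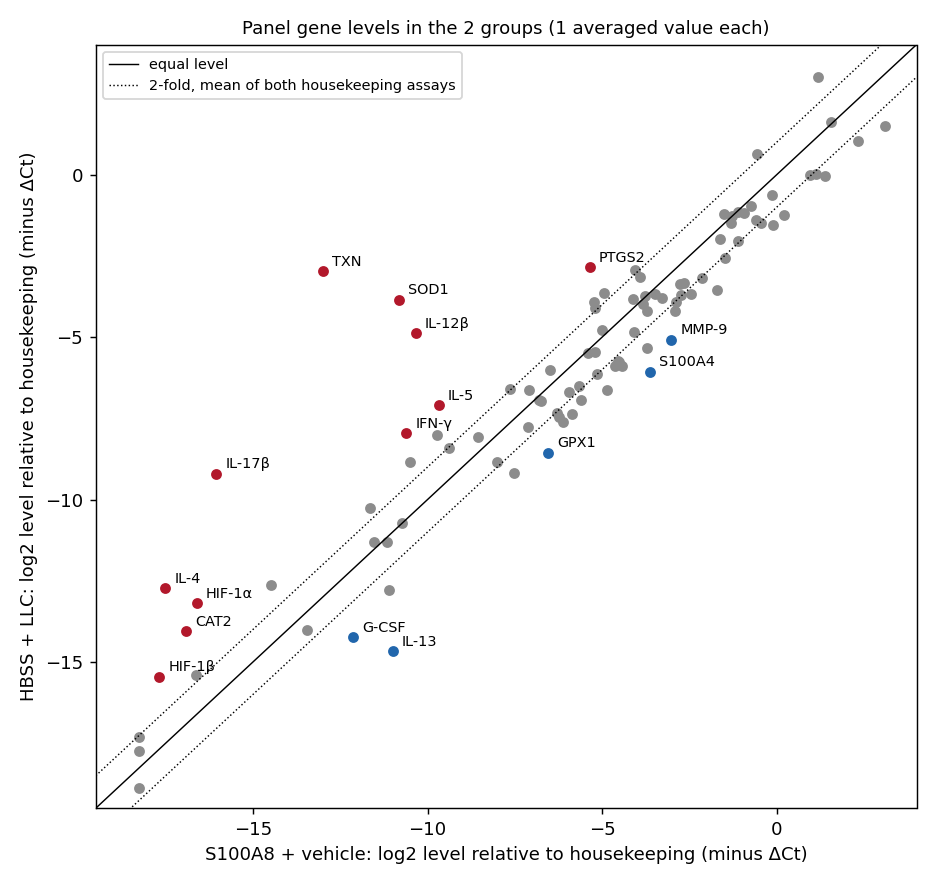
Log2 level of each panel gene relative to the mean of both housekeeping assays (minus ΔCt) in S100A8 + vehicle (horizontal) and HBSS + LLC (vertical), with the line of equal level and 2-fold lines (dotted). The 11 higher (red) and 5 lower (blue) genes past 2-fold with either housekeeping assay alone are named, and the 3 points at the left edge are genes at the cut off of 38 cycles in S100A8 + vehicle.

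With the mean of both housekeeping assays, genes with a high Ct in the untreated lung leaned upward and the others downward. Of the 20 genes with a Ct above 30 in HBSS + vehicle, 11 were more than 2-fold higher in HBSS + LLC than in S100A8 + vehicle and 1 was more than 2-fold lower, with a median of 1.165. Among the other 78 genes 12 were higher and 30 lower, with a median of -0.705. The first assay alone adds 0.96 to both medians, which puts both above 0. Of the core of 16 genes, 8 higher and 1 lower came from the 20 genes with a high Ct, and 3 higher and 4 lower from the other 78. The part of high Ct values in these differences was not tested.

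Cell type markers on the panel were few, and none was at the cut off in the groups given here. Summed levels use the mean of both housekeeping assays. The order of HBSS + vehicle and HBSS + LLC in them can change with the assay. The neutrophil markers *S100A8* and *S100A9* together had a summed level of 87.3% of the housekeeping mean in HBSS + vehicle, 189% in S100A8 + vehicle and 78.0% in HBSS + LLC. Both were more than 2-fold lower in HBSS + LLC with the mean of both housekeeping assays, as were 31.6% of the panel. They stood at -0.09 and -0.48 with the first assay alone. The epithelial markers *CDH1*, *MUC1*, *KRT5* and *KRT14* had a summed level of 151%, 409% and 199% in the same order, nearly all of it from *CDH1* and *MUC1*. Of these 4, 2 were more than 2-fold lower, beside 31.6% of the panel. Their median of -1.035 became -0.075 with the first assay. The alveolar type 1 markers are 2 genes, of which *CAV1* was higher and the S100 receptor lower in both of its assays with the mean of both housekeeping assays. The 3 assays summed to 1031%, 1591% and 1291%, with the receptor counted under both names. The endothelial markers *VCAM-1* and *CDH13* summed to 22.1%, 21.4% and 18.9%, and the T cell kinase *LCK* stood at 18.1%, 5.85% and 3.50%. The part of these markers' cells in the differences of other genes was not tested.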

How the data were processed

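RT-qPCR was run on whole-lung RNA (1.5 µg reverse-transcribed) with assays for 98 panel genes and 2 housekeeping genes, β-actin and β2M. The authors set a cut off of 38 cycles, averaged Ct over 4 to 5 mice per group and deposited 1 value per group and assay without normalization. Assays and groups are numbered in the deposited values. They were named by matching the authors' deposited fold changes, a ratio against HBSS + vehicle, with those printed by gene and group with the study, and all 98 genes matched exactly 1 assay at all 294 values within a relative 0.01%. The fold changes served only as this key, and hold the authors' own comparisons. The 2 assays left over were taken as the housekeeping genes, and which is β-actin is not known. The labels name a LightCycler, the methods a QuantStudio.

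The difference was minus the change in Ct minus mean housekeeping Ct, and a call was more than 2-fold. Alternatives were either housekeeping assay alone, the panel median as reference, a Ct cap of 35, genes with Ct of at most 30 or 35 in both groups, and thresholds of 1.5-fold and 3-fold. Named genes were the 10 largest differences each way, those past 2-fold with either housekeeping assay alone, panel names of the same gene, *S100A8* and *S100A9*, and members of the 17 gene lists where described. The comparison, lists and rules were chosen with earlier results of these data known. Gene names were paired with RefSeq symbols for 93 of the 98 genes, and promoters read from RefSeq for GRCm38.p6. Functions were tested on simulated Ct values. Python 3.11.15, numpy 2.4.6 and matplotlib 3.10.9 were used. With 1 averaged value per group the precision is unknown. The values of 1 panel gene are counted but not reported here.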

Additional observations from a re-analysis of the deposited data

How the results depend on the processing

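The reference moved more calls than any other choice tried. Against 23 higher and 31 lower genes with the mean of both housekeeping assays, the first assay alone gave 35 and 5, the second alone 11 and 59, and the panel median left 18 lower. A 3-fold threshold gave 15 higher and 11 lower, and genes with Ct of at most 30 in both groups (75 genes) held 10 higher. The panel's median difference of -0.30 became 0.66, -1.26 and 0.015 with the first assay, the second assay and the panel median. With the first assay alone, list medians were 0.47 for antioxidants, 0.85 for oxidant production and amino acid metabolism, 1.35 for innate cytokines, 0.255 for regulatory cytokines, -0.49 for colony-stimulating factors, 0.075 for chemokines, 0.44 for *CXCR4* and *MIF*, -0.50 for S100 proteins, 0.76 for growth factors, 0.61 for proliferation and survival, 0.77 for matrix, 0.95 for adhesion and -0.49 for transcription factors. With the second alone they were -1.45 for antioxidants, -1.07 for oxidant production, 0.45 for type 1 cytokines, -0.57 for innate cytokines, -1.665 for regulatory cytokines, -1.845 for chemokines, -1.48 for *CXCR4* and *MIF*, 0.68 for eicosanoid enzymes, 0.90 for hypoxia genes, -1.16 for growth factors, -1.31 for proliferation and -1.15 for matrix. With the panel median, oxidant production stood at 0.205, growth factors at 0.115, matrix at 0.125 and adhesion at 0.305. Among genes with Ct of at most 30, antioxidants stood at -1.04, innate cytokines at -0.21, regulatory cytokines at -1.27, matrix at -1.21 and adhesion at 0.02. With Ct of at most 35, innate cytokines stood at -0.21, and type 2 cytokines turned to -0.55 because *IL-4* was left out. Capping Ct at 35 turned *HIF-1β* to -0.19 and *COL11A1* to -0.14, and left 93 of the 98 genes on the same side of 2-fold with the same sign. Genes above the cap in both groups take a value fixed by the housekeeping assays there, which holds for *HIF-3α*, *IL-2* and *MMP-10*. No paired analysis was possible because each group has 1 averaged value. Without values per mouse, precision is unknown at every Ct level, and Ct values above 30 rest on little template.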
